A study of Homo sapiens with 18 samples.

Results

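A set of 6 arrays of LNCaP cells carried the comparison described here, the response to dihydrotestosterone (DHT) in cells that had received a control siRNA. LNCaP is an established, androgen-responsive prostate cancer cell line. All 6 samples had been starved of hormone in charcoal-stripped serum for 48 h and transfected for 48 h with a control siRNA; 3 then received 10 nM DHT for 24 h and 3 received the ethanol vehicle. They were 6 of the 18 arrays of the series, chosen by their labels. The other groups, of 3 arrays each, were LNCaP with an siRNA against TRIM24, with vehicle or with DHT, and LNCaP-abl, an androgen-independent derivative of LNCaP, with control or TRIM24 siRNA and vehicle. TRIM24 is a chromatin reader and a coactivator of the androgen receptor. The labels do not say whether the 3 arrays of a group came from separate cultures, so the p-values measure the spread between arrays, which may be technical, and a single line was used.

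DHT is the potent androgen that prostate cells form from testosterone. It binds the androgen receptor, which leaves its chaperones, enters the nucleus and binds DNA as a dimer at androgen response elements, many of them in enhancers far from the genes they serve. In prostate epithelium the receptor drives secretory differentiation, including the kallikrein proteases of seminal fluid, lipid and protein synthesis, and in cancer cells proliferation; it also represses a smaller group of genes, some through competition or feedback. Prostate-specific antigen, the product of KLK3, is its best-known target.

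The proximal promoters of 3 of the most strongly induced genes are shown because they hold a match, or a near match, to the androgen response element, an inverted repeat of AGAACA and TGTTCT spaced by 3 bases. Each is the 250 bases before the RefSeq transcript start, 5′ to 3′ on the gene's strand, from RefSeq on GRCh38.p14, with the element in capitals. They lie at chr19:50854665-50854914 (plus strand) for KLK3, chr19:50873189-50873438 (plus strand) for KLK2 and chr10:58999268-58999517 (plus strand) for LINC00844.
KLK3: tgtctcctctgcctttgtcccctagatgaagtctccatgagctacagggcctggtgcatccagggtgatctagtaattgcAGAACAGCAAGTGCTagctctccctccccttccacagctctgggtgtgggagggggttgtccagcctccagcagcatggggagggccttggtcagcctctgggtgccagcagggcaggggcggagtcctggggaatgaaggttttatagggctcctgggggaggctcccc
KLK2: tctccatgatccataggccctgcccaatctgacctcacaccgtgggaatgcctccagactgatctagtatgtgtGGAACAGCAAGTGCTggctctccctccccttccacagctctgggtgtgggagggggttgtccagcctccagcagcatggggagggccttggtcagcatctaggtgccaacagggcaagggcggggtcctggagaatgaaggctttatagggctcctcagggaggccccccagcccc
LINC00844: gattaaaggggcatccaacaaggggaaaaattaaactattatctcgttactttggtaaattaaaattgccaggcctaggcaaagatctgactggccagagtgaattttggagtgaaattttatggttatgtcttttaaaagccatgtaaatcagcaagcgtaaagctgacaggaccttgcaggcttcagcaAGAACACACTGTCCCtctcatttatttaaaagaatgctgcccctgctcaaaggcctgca
Counting from 1 at the 5′ end of the element, with the consensus base first, the KLK3 element, 170 to 156 bases before the start, carried T10A and T13G. The KLK2 element, 176 to 162 bases before the start, carried A1G, T10A and T13G, so it fell outside the limit of 2 differing letters used in the search of all promoters. The LINC00844 element, 59 to 45 bases before the start, carried T13C and T15C.

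The response was broad and mostly small, with a short tail of very large changes. Of 13607 genes tested, 6222 (45.7%) passed an adjusted p of 0.05 in limma's moderated test over all genes, 2635 higher with DHT (19.4%) and 3587 lower (26.4%). On the log2 scale, the genes that passed changed by 0.29 at the median. A change of at least 2-fold was called for 272 genes that rose (2.00%) and 190 that fell (1.40%), and one of at least 4-fold for 68 and 30 genes. The 3 DHT arrays lay wholly above or wholly below the 3 vehicle arrays for 7147 genes (52.5%). Large rises therefore outnumbered large falls, while in the deposited scaling small falls outnumbered small rises. The median difference of all genes tested was -0.04. Rescaling moved the balance of the small calls: the higher genes were 42.4% of the calls as deposited, 49.9% after centring each array on its median and 38.9% after quantile normalization.

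The 6 arrays resembled one another within each group. Over the whole table, the lowest correlation of an array with another of its group was 0.996 to 0.998 across all groups of the series. The 3′ minus 5′ difference of the GAPDH control probe sets, a sign of RNA integrity, was 0.52 ± 0.03 (SD, n = 3) with vehicle and 0.56 ± 0.01 with DHT, and that of ACTB was 1.87 ± 0.06 and 1.85 ± 0.09. The luminal epithelial markers KRT8, KRT18 and EPCAM were high in both groups. Among 11 leukocyte and endothelial markers on the array, 3 had a DHT mean and 4 a vehicle mean above the median of the table, 5.88, as did 4 of 9 basal markers in both groups. PTPRC, which defines leukocytes, CDH5 and KDR of endothelium and the basal keratins KRT5 and KRT14 lay below it. Above it in both groups lay CD79A of leukocytes, PECAM1 and VWF of endothelium and the basal markers ITGA6, DST, ITGB4 and LAMB3. CD3E of leukocytes lay above it with vehicle only (5.90).

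The kallikreins of the classical androgen programme were among the largest rises. KLK3, the serine protease that liquefies semen, read 8.55, 8.38 and 8.57 on the vehicle arrays and 14.07, 14.16 and 14.12 on the DHT arrays, a difference of 5.62 ± 0.13 (log2, SE), or 49.0-fold, with an adjusted p of 9.5e-15. KLK2, which activates the KLK3 product, read 5.62, 5.42 and 5.66 with vehicle and 10.48, 10.44 and 10.61 with DHT (4.95 ± 0.07, 30.8-fold). In both genes every DHT array was far above every vehicle array. KLK4, a further prostate kallikrein, rose less (0.68 ± 0.06), and KLK15, another member of the cluster, differed by 0.13 ± 0.11 (adjusted p = 0.344). The most variable probe set of each gave 2.65 for KLK4 and 1.11 for KLK15, the latter called higher. KLK2 and KLK3 are close in sequence, so their probe sets may share signal. Other probe sets of KLK3 gave 5.50 and 0.30, and those of KLK2 ranged from -0.19 to 6.89.

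The largest difference of all belonged to STEAP4, a metalloreductase of endosomes, which read 3.57, 3.61 and 4.02 with vehicle and 10.33, 10.11 and 10.25 with DHT (6.50 ± 0.12, 90.3-fold). SLC38A4, a carrier of neutral amino acids, rose from 2.80, 2.73 and 2.82 to 8.63, 8.82 and 8.96 (6.02 ± 0.10), and TRPM8, the cold-gated calcium channel first found in prostate, from 6.16, 6.25 and 6.15 to 11.95, 11.98 and 11.98 (5.79 ± 0.08). The long non-coding RNA LINC00844 read 3.08, 3.04 and 3.17 with vehicle and 8.73, 8.74 and 8.62 with DHT (5.60 ± 0.07). No array of one group came near the other in these genes. All 4 had vehicle means near or below the table's median, where RMA values are compressed, so the fold changes understate such rises. The remaining genes among the 12 largest rises were CCDC141, a centrosomal protein (5.98 ± 0.08), SNAI2, a zinc finger repressor of E-cadherin (4.76 ± 0.10), EAF2, a partner of the elongation factor ELL (4.39 ± 0.06), TMCC3 (4.35 ± 0.12), the peptide carrier SLC15A2 (4.30 ± 0.11) and F5, coagulation factor V (4.25 ± 0.11). CDH1, the gene of E-cadherin itself, differed by 0.03 ± 0.05 beside the rise of SNAI2. Averaging all probe sets of a gene lowered SLC38A4 to 3.55, CCDC141 to 3.81 and TRPM8 to 2.83, and a second probe set of STEAP4 gave 3.05.

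**Figure D1:**
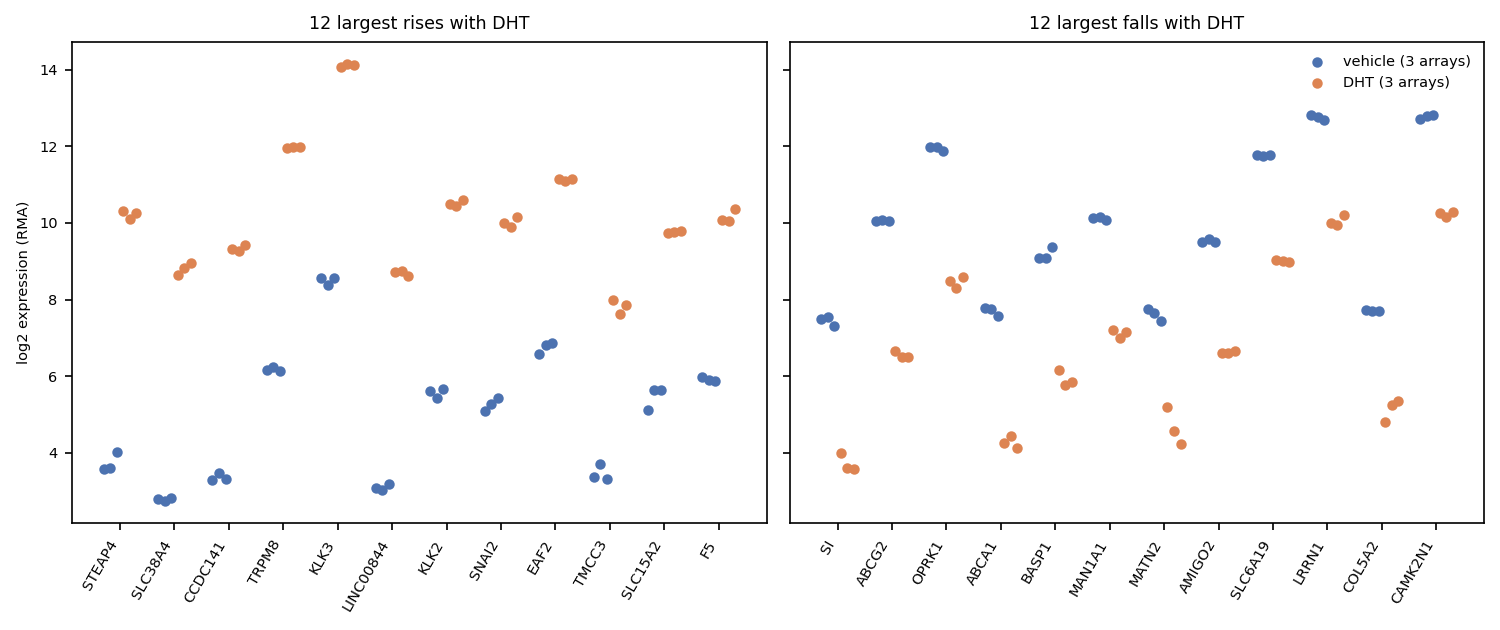
Log2 expression of the 12 genes with the largest rises and the 12 with the largest falls with DHT, with 1 point per array for the 3 vehicle and the 3 DHT arrays of LNCaP with control siRNA. In every gene shown the groups do not overlap; KLK3 reaches 14.07, 14.16 and 14.12 with DHT and SI ends at 3.98, 3.61 and 3.59.

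Of the 28 tested genes of a list of androgen-induced genes, 25 rose, 1 fell and 2 did not pass, and the median difference was 2.34, against -0.04 for all genes. The list was chosen with earlier results of these data known, so these values only describe its members. FKBP5, the immunophilin that sits on the receptor's chaperone complex, read 9.71, 9.72 and 9.74 with vehicle and 13.20, 13.19 and 13.16 with DHT (3.46 ± 0.04, 11.0-fold). TMPRSS2, the surface protease whose promoter is fused to ERG in many prostate cancers, read 9.72, 9.68 and 9.71 with vehicle and 12.24, 12.22 and 12.28 with DHT (2.54 ± 0.03). SLC45A3, a prostate sugar transporter that is another fusion partner, rose by 2.42, and NDRG1, a stress-responsive differentiation gene, by 3.05. Secreted or prostaglandin-related members rose as well, with ORM1 at 3.58, AZGP1 at 3.29 and HPGD, which breaks down prostaglandins, at 2.36 (3.81 over its probe sets). Among transcription regulators, MAF rose by 2.65 (1.44 over its probe sets), ZBTB10 by 2.18 and ELL2, an elongation factor, by 1.63. CENPN, a kinetochore protein, rose by 3.10, and by 4.69 on its most variable probe set. CAMKK2, a kinase upstream of AMPK, moved only from 9.86, 9.96 and 9.76 to 10.20, 10.53 and 10.38 (0.51 ± 0.09), yet its groups did not overlap. MED28 differed by -0.05 ± 0.04 (adjusted p = 0.351). TSC22D3, the glucocorticoid-induced leucine zipper, was the single member called lower (-0.12 ± 0.05, adjusted p = 0.0470), and that call was lost under most of the alternative settings.

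The 12 largest falls with DHT lay between -3.72 and -2.55 on the log2 scale. SI, the disaccharidase sucrase-isomaltase, read 7.48, 7.54 and 7.32 with vehicle and 3.98, 3.61 and 3.59 with DHT (-3.72 ± 0.09, 13.2-fold lower). The DHT mean of SI, 3.73, lay below the table's median, where values are compressed, so its fold change may understate the fall. ABCG2, a drug efflux pump, read 10.05, 10.07 and 10.06 with vehicle and 6.67, 6.51 and 6.51 with DHT (-3.50 ± 0.07), and OPRK1, the kappa opioid receptor, 11.99, 11.97 and 11.88 with vehicle and 8.50, 8.30 and 8.58 with DHT (-3.49 ± 0.07). The vehicle arrays stood clear of the DHT arrays in all 3. BASP1, a membrane-bound growth cone protein and transcriptional corepressor, fell by 3.26 on the log2 scale and CAMK2N1, an inhibitor of calcium/calmodulin kinase II, fell by 2.55. The Golgi mannosidase MAN1A1 (-3.00), the adhesion molecule AMIGO2 (-2.90), the matrix proteins MATN2 (-2.95) and COL5A2 (-2.56), LRRN1 (-2.72) and the amino acid carrier SLC6A19 (-2.76) were also among the 12 largest falls. Averaging over probe sets reduced BASP1 to -1.57 and MATN2 to -1.41.

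Of 13 tested genes of an androgen-repressed list, 12 fell, none rose and 1 did not pass, against 26.4% lower among all genes, and the median was -2.15. The list was chosen with earlier results of these data known. It holds SI, OPRK1, BASP1 and CAMK2N1 of the largest falls, so its share and median only describe the members. UGT2B15 and UGT2B17 encode the enzymes that conjugate DHT and its metabolites to glucuronic acid for removal. UGT2B15 read 13.21, 13.15 and 13.15 with vehicle and 10.68, 10.66 and 10.70 with DHT (-2.49 ± 0.04), and UGT2B17 read 11.46, 11.30 and 11.23 with vehicle and 8.96, 8.93 and 9.11 with DHT (-2.33 ± 0.07). These 2 genes are nearly identical in sequence, so how far each moved separately is uncertain. UGT2B28, another member of the family, differed by 0.12 ± 0.05 (adjusted p = 0.0615) and rose past the threshold after median centring and under the stricter filter on low values. FOLH1, which encodes prostate-specific membrane antigen, read 8.13, 8.04 and 8.00 with vehicle and 7.11, 7.24 and 7.14 with DHT (-0.90 ± 0.08, 1.86-fold lower). BCHE, butyrylcholinesterase, fell by 2.15, DDC, the aromatic amino acid decarboxylase, fell by 1.04 (-0.50 over its probe sets), ACKR3, a scavenging chemokine receptor, fell by 1.01 and MET, the hepatocyte growth factor receptor, fell by 0.18 (adjusted p = 0.0439). The call of MET was lost under most alternatives, though its most variable probe set gave -1.21.

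The androgen response element was rare in the promoters of responding genes, as in those of all genes. The element with at most 2 differing letters, on either strand, was present in 1.44% of 27305 promoters, each from 250 bases before to 50 after the start, and in 0.639% of the 10959 promoters of tested genes. It was present in 3 of 225 promoters (1.33%) of genes that rose at least 2-fold in 1 of 144 (0.694%) of those that fell as much, and in 5 of 2215 (0.226%) of all genes called higher. The half-site TGTTCT was in 10.7% of the promoters of the former, 15.3% of the latter and 9.10% of tested genes. None of these shares was tested against another. The 3 holders among the risers were KLK3, LINC00844 and LINC00836. These windows leave out distant enhancers, and a match describes letters, not binding.

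The receptor's cofactors changed in both directions, 2 of them by at least 2-fold. Of 20 tested cofactors, 7 rose, 6 fell and the median was -0.04, beside 19.4% and 26.4% of all genes. PIAS1, a SUMO ligase that binds the receptor, rose by 1.11 ± 0.05 and GRHL2, an epithelial transcription factor, by 1.08 ± 0.04. TRIM24 itself read 9.70, 9.71 and 9.71 with vehicle and 10.12, 10.13 and 10.17 with DHT (0.44 ± 0.05), and its paralog TRIM33 rose by 0.41. NCOA2, a p160 coactivator, fell by 0.53, the homeobox factor HOXB13 fell by 0.36 and the glucocorticoid receptor NR3C1 fell by 0.35. FOXA1, the pioneer factor that opens receptor sites, differed by 0.01 ± 0.05 (adjusted p = 0.852). Averaging the probe sets of NCOA2 gave -0.28, and without _x_at probe sets NR3C1 was at -0.11 and not called. Of the 17 chaperones and immunophilins, 2 rose and 6 fell; FKBP5 was the only one to rise by 2-fold or more, and the fallers included the small heat shock protein HSPB1 (-0.23).

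Steroid-converting enzymes fell more often than they rose, with 8 of 18 lower and 3 higher, against 26.4% and 19.4% of all genes. AKR1C3, which forms testosterone from androstenedione, read 7.38, 7.38 and 7.42 with vehicle and 6.65, 6.64 and 6.57 with DHT (-0.78 ± 0.13), and the related AKR1C2, which inactivates DHT, fell by 0.57; the AKR1C genes are close copies whose probe sets can share signal. HSD17B11 rose by 0.99 ± 0.06. SRD5A1, the 5α-reductase that makes DHT, differed by 0.12 ± 0.05 (adjusted p = 0.0626) and was called higher after median centring (0.14). Without probe sets marked _x_at, whose probes match several genes, 5 of the steroid genes were lower.

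In lipid metabolism, single enzymes moved by more than 2-fold while the medians of the pathways stayed near 0. Of 21 cholesterol synthesis and uptake genes, 10 rose and 2 fell, against 19.4% and 26.4% of all genes, with a median of 0.09. HMGCS1, which makes HMG-CoA, read 8.40, 8.39 and 8.19 with vehicle and 9.83, 9.62 and 9.77 with DHT (1.42 ± 0.06). SCAP, the escort of the sterol regulatory element binding proteins, rose by 0.53 and lanosterol synthase LSS by 0.48. IDI1, an isoprenoid isomerase, was called higher (0.74), but its probe sets disagreed: the most variable of them, and the one left without _x_at probe sets, gave -0.02. INSIG2, which retains SCAP in the endoplasmic reticulum, read 10.12, 10.04 and 10.08 with vehicle and 8.74, 8.68 and 8.76 with DHT (-1.36 ± 0.04), the largest fall of the list, while its paralog INSIG1 rose by 0.41. SQLE, squalene epoxidase, differed by -0.07 ± 0.04 (adjusted p = 0.150) and was called lower after quantile normalization (-0.10). The SREBP element TCACNCCAC was found in 1 of the 19 promoters of this list.

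The largest falls in cholesterol export were those of ABCA1 and ABCG1. ABCA1, the pump that loads apolipoprotein A-I with cholesterol, read 7.77, 7.77 and 7.57 with vehicle and 4.26, 4.44 and 4.12 with DHT (-3.43 ± 0.09, 10.8-fold lower), and ABCG1, which exports sterol to mature particles, read 10.49, 10.50 and 10.36 with vehicle and 9.00, 8.88 and 8.98 with DHT (-1.50 ± 0.05). No DHT array reached a vehicle array in either gene. The DHT mean of ABCA1, 4.27, lay below the table's median, where values are compressed, so its fold change may understate the fall. Of 10 tested genes of efflux and of the liver X receptors, 6 fell, 1 rose and 3 did not pass, against 26.4% lower and 19.4% higher among all genes (median -0.28); the fallers also held LPCAT3, a phospholipid acyltransferase (-0.50), and MYLIP, which degrades the LDL receptor (-0.33). The mean over probe sets was -1.72 for ABCA1 and -0.23 for LPCAT3.

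Of 21 fatty acid synthesis genes, 10 rose and 7 fell, against 19.4% and 26.4% of all genes. The elongases led: ELOVL7, which extends long saturated chains, read 9.61, 9.56 and 9.65 with vehicle and 11.75, 11.79 and 11.92 with DHT (2.21 ± 0.04), ELOVL2 rose by 1.96 and ELOVL5 by 0.77, whereas ELOVL6 fell by 0.36. Averaged over probe sets ELOVL2 was at 1.18 and FASN at 0.35, and the most variable probe set of ELOVL6 gave -0.02, which was not called. The core enzymes ACACA and FASN rose by 0.61 and 0.60, and the stearoyl desaturase SCD differed by -0.01 ± 0.03 (adjusted p = 0.842). The triglyceride-forming acyltransferases DGAT1, DGAT2 and GPAM fell by 0.25, 0.61 and 0.41. Fatty acid oxidation was mixed, with 7 of 17 genes higher and 4 lower, beside the same shares of all genes. Its largest rise was AMACR, the racemase used to stain prostate cancer (1.20, or 0.78 over all its probe sets), followed by the medium-chain dehydrogenase ACADM (0.78), and its largest fall EHHADH (-0.55). The peroxisomal carnitine transferase CROT, placed with synthesis in the list, rose by 1.39.

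**Figure D2:**
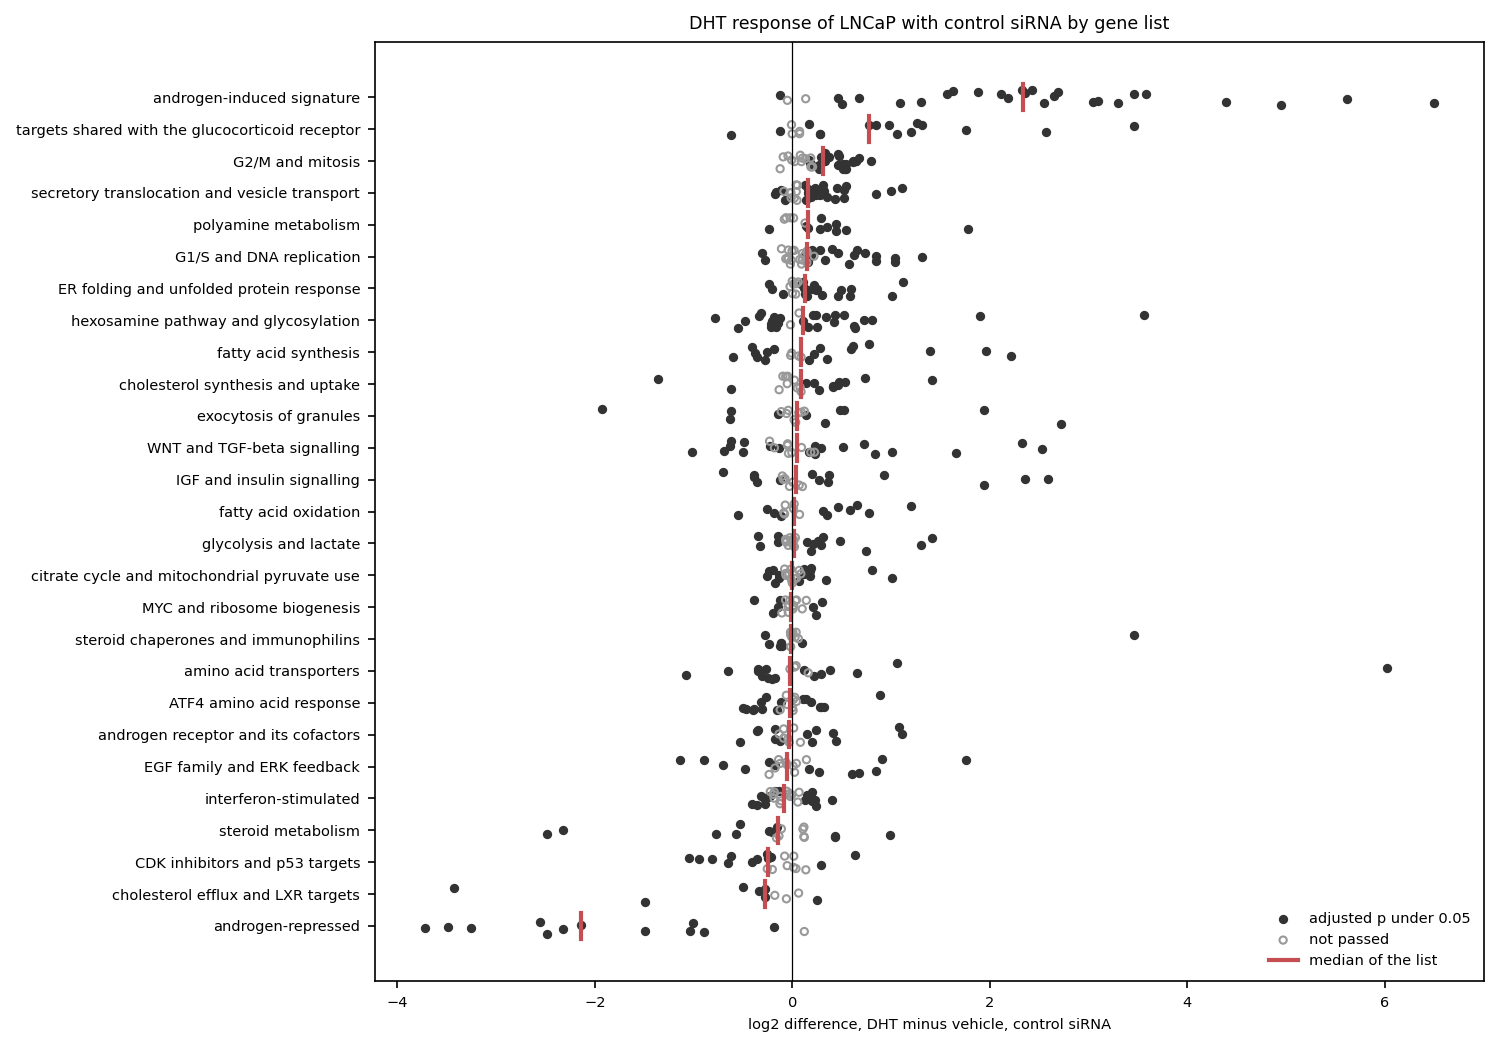
Log2 difference of DHT minus vehicle for every tested gene of the 27 lists other than cell type markers, 1 point per gene, filled where the adjusted p was under 0.05, with the median of each list as a bar. The androgen-induced list has its median at 2.34 and the androgen-repressed list at -2.15, while the medians of the other lists lie between -0.28 and 0.77. The lists were chosen with earlier results of these data known.

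Genes of protein secretion rose more often than they fell. Of 33 genes of translocation and vesicle transport, 20 rose and 4 fell (median 0.15), against 19.4% and 26.4% of all genes. SPDEF, an ETS factor of secretory epithelia, read 8.80, 8.84 and 8.84 with vehicle and 9.96, 9.86 and 10.00 with DHT (1.11 ± 0.04); over all its probe sets it rose by 0.63. CREB3L4, a membrane-bound transcription factor of the prostate, rose by 0.85 ± 0.04, and SEC24D, a cargo selector of COPII vesicles, by 0.99 ± 0.12. Other coat and signal peptidase genes moved by less, among them SAR1B (0.43) and SEC11C (0.52); their most variable probe sets gave 0.73 and 1.02.

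Endoplasmic reticulum folding and unfolded protein response genes rose in 17 of 27 cases and fell in 3, against 19.4% and 26.4% of all genes, with a median of 0.13. ERN1, the IRE1 sensor, read 8.77, 8.63 and 8.63 with vehicle and 9.81, 9.77 and 9.81 with DHT (1.12 ± 0.05), and DNAJB9, a cochaperone induced through it, read 10.41, 10.40 and 10.37 with vehicle and 11.41, 11.36 and 11.44 with DHT (1.01 ± 0.03). HERPUD1 and MANF rose by 0.59 and 0.59. The major chaperone HSPA5 moved by 0.13 ± 0.04, a call lost when the fit used the arrays compared alone (adjusted p = 0.103), and the transcription factor XBP1 fell by 0.20. Averaged over probe sets, HERPUD1 was at 0.22 and none of the 3 falls was called, with XBP1 at 0.00. The amino acid branch of the stress response had a different count, which was not tested against the first. Of 24 ATF4 targets 7 rose and 9 fell, beside the same shares of all genes. The fallers included ASNS, asparagine synthetase (-0.38), the serine synthesis enzymes PHGDH and PSAT1 (-0.47 and -0.40), and DDIT3, the CHOP factor (-0.27). The risers included PSPH, another serine synthesis enzyme (0.27), and VLDLR (0.89), the largest change of the list.

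The machinery of granule release changed member by member. RAB27A, a GTPase that docks secretory granules, read 7.65, 7.63 and 7.61 with vehicle and 10.46, 10.29 and 10.30 with DHT (2.72 ± 0.07), and RAB3B, a GTPase of regulated exocytosis, 7.58, 7.62 and 7.64 with vehicle and 9.56, 9.57 and 9.52 with DHT (1.94 ± 0.05). SYTL2, a RAB27 effector, went the other way, from 10.62, 10.61 and 10.63 to 8.73, 8.70 and 8.64 (-1.93 ± 0.03), as did RAB27B (-0.63, or -0.34 on its most variable probe set) and SYTL4 (-0.63, or -0.32 over its probe sets). In all, 6 of 18 rose and 4 fell, against 19.4% and 26.4% of all genes.

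Sugar donors and glycosylation enzymes formed one of the most frequently changed groups, with 15 of 29 higher and 12 lower, against 19.4% and 26.4% of all genes. ST6GALNAC1, which makes the sialyl-Tn antigen, read 7.05, 7.26 and 6.97 with vehicle and 10.67, 10.66 and 10.66 with DHT (3.56 ± 0.09, 11.8-fold). UAP1, the last enzyme of the hexosamine pathway, read 11.26, 11.25 and 11.28 with vehicle and 13.18, 13.14 and 13.18 with DHT (1.90 ± 0.03). The sialic acid enzymes CMAS and NANS rose by 0.81 and 0.72, or by 0.46 and 0.38 over all their probe sets. GFPT1, the entry enzyme of the hexosamine pathway, rose by 0.24. Falls were seen in the branching and capping enzymes ST3GAL1 (-0.79), MGAT4A (-0.56) and ST6GAL1 (-0.48) and in subunits of the oligosaccharyltransferase such as DDOST (-0.21). Neither class fell as a whole. The branching enzymes GCNT1 (0.62) and GCNT2 (0.25) rose, as did the oligosaccharyltransferase subunits OSTC (0.20) and RPN1 (0.10).

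Polyamines are secreted into seminal fluid in quantity, and 9 of 15 genes of their metabolism rose and 1 fell, against 19.4% and 26.4% of all genes (median 0.15). SMS, spermine synthase, read 10.41, 10.43 and 10.31 with vehicle and 12.19, 12.12 and 12.17 with DHT (1.78 ± 0.05, 3.43-fold). ODC1, the first enzyme of the pathway, rose by 0.44 ± 0.03, ARG2, which supplies ornithine, by 0.55, and SAT1, which acetylates spermine for export, by 0.36. OAZ2, an antizyme that degrades ODC1, was the member that fell (-0.24), and its most variable probe set gave -0.07, which was not called. Of the other antizymes, OAZ3 rose by 0.44, and OAZ1 differed by 0.01 and was not called.

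In glycolysis, 10 of 24 genes rose and 4 fell, against 19.4% and 26.4% of all genes, and the largest rises were a regulator of phosphofructokinase and a glucose transporter. PFKFB2, which makes the activator of phosphofructokinase, read 7.17, 7.39 and 6.96 with vehicle and 8.55, 8.52 and 8.71 with DHT (1.42 ± 0.08), with 0.88 over its probe sets. The glucose transporter SLC2A3 rose by 1.31 (3.59 on its most variable probe set) and hexokinase HK2 by 0.75 (0.27 over its probe sets). The abundant enzymes of the lower pathway moved little in most members, with GAPDH at -0.03 ± 0.03 (adjusted p = 0.467). Of 27 genes of the citrate cycle and pyruvate use, 9 rose and 6 fell, against the same background, led by MPC2, a subunit of the mitochondrial pyruvate carrier (1.01, or 1.64 on its most variable probe set), and the cytosolic isocitrate dehydrogenase IDH1 (0.81). MPC1, the partner of MPC2, fell by 0.20, a call lost over its probe sets (-0.05). Without the first DHT array 5 of the 27 rose.

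Amino acid transporters split in both directions, 7 of 21 higher and 10 lower, against 19.4% and 26.4% of all genes. Beside SLC38A4, the cystine carrier SLC7A11 rose by 1.06 and SLC43A1, a carrier of branched-chain amino acids named for prostate cancer, by 0.66. The heterodimer of SLC7A5 and SLC3A2, which imports leucine, fell in both parts (-0.35 and -0.20), and SLC38A9, a lysosomal arginine sensor, fell by 1.07. Of the genes of ribosome biogenesis, 3 of 20 rose and 4 fell, beside 19.4% and 26.4% of all genes, and whether these shares differ was not tested. MYC read 11.27, 11.32 and 11.37 with vehicle and 10.97, 10.92 and 10.88 with DHT (-0.39 ± 0.04), so the DHT arrays were below the vehicle arrays by a small margin.

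Genes of the cell division cycle rose far more often than they fell. Of 40 mitotic genes 27 rose and none fell at the adjusted threshold, with a median of 0.31, and of 39 genes of the G1/S transition and DNA replication 19 rose and 2 fell (median 0.15), against 19.4% higher and 26.4% lower among all genes. RRM2, the regulated subunit of ribonucleotide reductase, read 7.25, 7.20 and 7.12 with vehicle and 8.56, 8.36 and 8.57 with DHT (1.31 ± 0.06). CDC25A, the phosphatase that switches on CDK2, read 7.01, 7.09 and 7.28 with vehicle and 8.16, 8.18 and 8.17 with DHT (1.04 ± 0.06), and the origin licensing factors CDC6 and MCM10 rose by 0.85 and 0.85. CDK2 itself rose by 0.74 (0.30 over its probe sets), and the most variable probe sets of CDC25A and CDC6 gave 1.90 and 1.44. CCNE2, a cyclin partner of CDK2, and MCM2, a helicase subunit, were the 2 that fell (-0.30 and -0.27); without the second DHT array CCNE2 was at -0.22 and not called.

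Among the mitotic genes, TTK, a kinase of the spindle checkpoint, read 5.78, 5.89 and 5.59 with vehicle and 6.47, 6.54 and 6.63 with DHT (0.80 ± 0.09). KIF20A, a kinesin of cytokinesis, read 5.87, 5.89 and 5.90 with vehicle and 6.59, 6.50 and 6.57 with DHT (0.67 ± 0.04), and UBE2C, the ubiquitin enzyme of the anaphase complex, 7.58, 7.61 and 7.58 with vehicle and 8.08, 8.05 and 8.02 with DHT (0.46 ± 0.04). DHT arrays exceeded vehicle arrays in each of these genes. TOP2A, the topoisomerase that untangles chromosomes, rose by 0.61 ± 0.07 and CDK1 by 0.29 ± 0.05. MKI67, the proliferation marker, differed by 0.10 ± 0.08 (adjusted p = 0.343), PLK1 by -0.12 ± 0.08 (adjusted p = 0.226) and FOXM1 by 0.13 ± 0.09 (adjusted p = 0.235), so 3 of the best-known proliferation genes did not pass. Without the third vehicle array MKI67 was called higher (0.20), and over its probe sets TOP2A rose by 0.39. In an array of a whole culture, a larger share of dividing cells and more RNA per dividing cell cannot be told apart.

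The promoters of 1 gene from each phase are shown for the motifs that mark these classes, TTTGAA, the cell cycle homology region of mitotic genes, and TTTGGCGC or TTTCGCGC, sites of the E2F factors. Both are the 250 bases before the start from RefSeq on GRCh38.p14, on the minus strand, at chr17:40417897-40418146 for TOP2A and chr3:48188418-48188667 for CDC25A, with the motifs in capitals.
TOP2A: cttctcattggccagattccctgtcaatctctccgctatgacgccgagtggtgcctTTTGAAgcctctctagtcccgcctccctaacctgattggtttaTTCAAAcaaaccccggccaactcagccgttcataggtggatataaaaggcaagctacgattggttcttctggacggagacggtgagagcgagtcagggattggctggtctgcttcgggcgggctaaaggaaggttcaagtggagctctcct
CDC25A: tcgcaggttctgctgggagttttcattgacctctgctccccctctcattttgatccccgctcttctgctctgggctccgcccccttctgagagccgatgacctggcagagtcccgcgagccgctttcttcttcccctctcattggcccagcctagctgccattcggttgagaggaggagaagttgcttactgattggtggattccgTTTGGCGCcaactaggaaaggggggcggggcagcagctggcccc
The TOP2A window held TTTGAA at 194 to 189 and its reverse complement TTCAAA at 151 to 146 bases before the start, and the CDC25A window held TTTGGCGC at 44 to 37. TTTGAA on either strand was in 22 of 34 promoters of mitotic genes (64.7%) and 15.4% of all promoters, and an E2F site in 12 of 34 G1/S promoters (35.3%) and 1.18% of all. Of the mitotic genes with TTTGAA, 16 of 22 rose, with a median difference of 0.33, and of those without it 7 of 12, with a median of 0.19. For the E2F site, 5 of 12 holders rose (median 0.14) and 11 of 22 of the others (median 0.15). Whether holders and others differed was not tested.

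**Figure D3:**
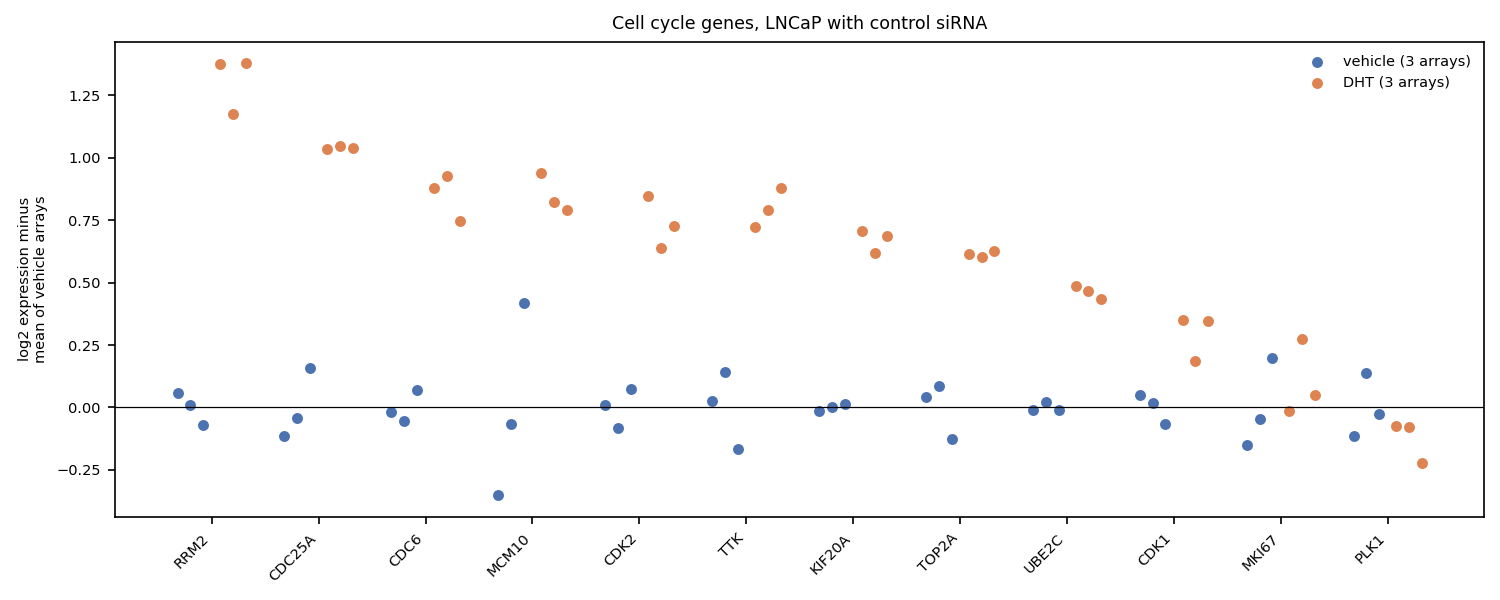
Log2 expression on each of the 3 vehicle and 3 DHT arrays relative to the mean of the vehicle arrays for 12 cell cycle genes. RRM2 and CDC25A lie highest with DHT at differences of 1.31 and 1.04, while MKI67 and PLK1 lie around 0.

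Of 21 tested inhibitors of the cycle and targets of p53, 11 fell, 2 rose and 8 did not pass, with a median of -0.25, against 26.4% lower and 19.4% higher among all genes. SUSD6, a p53 target of the cell surface, read 10.18, 10.19 and 10.22 with vehicle and 9.12, 9.14 and 9.18 with DHT (-1.05 ± 0.04), TP53INP1, which promotes p53 activity, 12.32, 12.31 and 12.17 with vehicle and 11.30, 11.34 and 11.33 with DHT (-0.94 ± 0.04), and SESN1, a stress sensor upstream of mTORC1, 11.47, 11.46 and 11.46 with vehicle and 10.65, 10.63 and 10.66 with DHT (-0.81 ± 0.03). The CDK inhibitors CDKN1A and CDKN1C fell by 0.36 and 0.63, CDKN1B differed by 0.01 ± 0.04 (adjusted p = 0.825), and the death receptor gene TNFRSF10B rose by 0.64. TP53INP1 was at -0.52 over its probe sets, and after quantile normalization CDKN1C was at -0.16 and not called.

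Growth factor signalling changed in a few large steps. IGF1R, the receptor of insulin-like growth factor 1, read 8.96, 9.11 and 8.81 with vehicle and 11.50, 11.52 and 11.63 with DHT (2.59 ± 0.06, 6.01-fold, and 1.62 over its probe sets), and the adaptor IRS2 read 7.88, 7.93 and 7.85 with vehicle and 10.33, 10.15 and 10.26 with DHT (2.36 ± 0.13). INPP4B, a lipid phosphatase that restrains AKT, rose in the same arrays (1.94 ± 0.08), while PIK3R3, a regulatory subunit of PI3-kinase, fell by 0.71. In total 8 of 20 genes of this pathway rose and 5 fell, and in the EGF family and its feedback 7 of 23 rose and 6 fell. Among all genes 19.4% rose and 26.4% fell, so the shares of falls were close to the background. ERRFI1, an inhibitor of the EGF receptor, rose by 1.76 ± 0.04 and EGFR itself by 0.85 ± 0.08 (0.20 over its probe sets), whereas ERBB2 fell by 0.90 (-0.47 over its probe sets) and the ERK phosphatases DUSP5 and DUSP6 fell by 1.14 and 0.70.

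The androgen and glucocorticoid receptors recognise the same DNA element. Of 19 tested genes known as targets of both, 13 rose and 2 fell, against 19.4% and 26.4% of all genes, with a median of 0.77. ZBTB16, a zinc finger repressor, read 7.29, 7.38 and 7.10 with vehicle and 9.88, 9.77 and 9.82 with DHT (2.56 ± 0.14). SGK1, a kinase of ion transport, rose by 1.26 ± 0.04, KLF15 by 1.31 ± 0.05 (0.65 over its probe sets) and NFKBIA, the inhibitor of NF-κB, by 1.20 ± 0.04 (0.58 over its probe sets). DUSP1, a classical glucocorticoid target, differed by -0.01 ± 0.03 (adjusted p = 0.846). FKBP5, ERRFI1, SLC7A11, TSC22D3 and CDKN1C stand in other lists too, so these counts overlap.

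In WNT and TGF-β signalling, 11 of 28 genes rose and 8 fell, beside 19.4% and 26.4% of all genes. BMPR1B, a receptor of bone morphogenetic proteins, read 7.88, 8.02 and 7.87 with vehicle and 10.48, 10.41 and 10.46 with DHT (2.53 ± 0.06), PMEPA1, an inhibitor of TGF-β signalling, rose by 2.32 and TGFB2 by 1.65. The WNT receptor FZD5 rose by 1.01 and FZD4 fell by 1.01, and the nuclear effectors LEF1 and TCF7L2 fell by 0.64 and 0.69, with LEF1 at -0.31 over its probe sets. Interferon-stimulated genes moved by little in either direction, 9 of 32 up and 9 down against the same background, with IFIT2 at 0.40 and IFITM1 at -0.41 as the extremes. That balance moved with the scaling, to 7 up and 12 down after quantile normalization and 9 up and 6 down after median centring.

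Luminal markers of the prostate rose in 8 of 18 cases and fell in 5, beside 19.4% and 26.4% of all genes. Apart from KLK3, KRT19 was the largest, reading 5.40, 5.38 and 5.45 with vehicle and 7.94, 8.15 and 8.00 with DHT (2.62 ± 0.12, 1.38 over its probe sets), and KRT8 and KRT18, the paired keratins of luminal cells, rose by 0.93 and 0.67. Without _x_at probe sets 4 luminal markers were higher. CD24 fell by 1.07, ACP3, prostatic acid phosphatase, fell by 0.49 and EPCAM fell by 0.22. The summed level of the luminal list was 16.12 to 16.14 with DHT and 15.68 to 15.74 with vehicle, on a log2 scale. That sum includes KLK3, which averaged 14.12 with DHT and 8.50 with vehicle. The sum without KLK3 was not taken, so the difference does not show a gain of luminal markers as a group.

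No tested marker of another cell type was called higher. Summed over 15 neuroendocrine markers on the array, the level was 12.61 to 12.76 with DHT and 13.64 to 13.68 with vehicle, a difference carried by DDC, which is also an androgen-repressed gene; CHGA, CHGB and INSM1 lay below the table's median in both groups, and 6 of the 15 lay above it in both. The 16 fibroblast and mesenchymal markers summed to 12.76 to 12.81 with DHT and 13.03 to 13.12 with vehicle, with VIM at -0.49 ± 0.10 (-0.23 over its probe sets) and FN1 at -0.23 ± 0.05. The 9 basal markers summed to 10.22 to 10.46 and 10.47 to 10.56, with 3 of the 4 tested lower, and the 11 leukocyte and endothelial markers to 8.74 to 8.83 and 8.80 to 8.85, with 0 of 4 called. What part these levels have in other results was not tested.

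The same hormone step in cells with TRIM24 siRNA, on 6 other arrays, gave 2301 genes higher (16.9%) and 3623 lower (26.6%). Of the 462 genes changed at least 2-fold with control siRNA, 461 were called in the same direction there and none in the opposite one. The exception was EMP1, a membrane protein of epithelia, which was at 1.22 with control siRNA and 0.58 with TRIM24 siRNA (difference 0.65 ± 0.32, adjusted p = 0.218). The median ratio of the response with TRIM24 siRNA to that with control siRNA was 0.962 over the 462 genes, and the correlation of the 2 responses across all 13607 genes was 0.919, a description over genes, which are not independent. The difference of the responses itself passed for 1507 genes (11.1%), of which 1131 were also called for the response with control siRNA. Of the 462 genes, 129 differed. RNA integrity was not equal between the siRNAs. With TRIM24 siRNA the 3′ minus 5′ difference of ACTB was 2.05 ± 0.07 with vehicle and 2.19 ± 0.07 with DHT. That of GAPDH was 0.59 ± 0.02 and 0.63 ± 0.01. With the GAPDH value as a covariate, 1446 genes passed for the difference of the responses, and ACTB was not tried.

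The largest differences between the responses lay outside the kallikreins. TCIM, a regulator of WNT signalling, was at 3.05 with control siRNA and 1.87 with TRIM24 siRNA (difference 1.19 ± 0.13, adjusted p = 3.7e-05). CAMK2D, a calcium/calmodulin kinase, was at 1.22 and 0.27, and CXCL8, the chemokine interleukin 8, at 0.79 and -0.12 (difference 0.90 ± 0.15). All were among the 6 largest positive differences of genes called with control siRNA. In the other direction, CP, ceruloplasmin, was at -2.37 and -0.74 (difference -1.63 ± 0.19, adjusted p = 8.1e-05), PLOD2, a collagen lysyl hydroxylase, at 0.63 and 2.24 (its most variable probe set gave 1.38 with control siRNA), and NPPC, a natriuretic peptide, at 1.23 and 2.64. With control siRNA, PLOD2 averaged 4.28 with vehicle and 4.91 with DHT, both below the table's median, where changes are compressed. The canonical targets were close to each other, with KLK3 at 5.62 and 6.03 (difference -0.41 ± 0.19, adjusted p = 0.176) and KLK2 at 4.95 and 4.73; FKBP5 was at 3.46 and 3.75 (difference -0.29 ± 0.06, adjusted p = 0.00611). With the arrays compared alone in the fit, the differences of KLK3 (adjusted p = 0.00368) and EMP1 (adjusted p = 0.0159) passed. On the most variable probe sets the difference was 0.60 for KLK2, which passed, -0.10 for FKBP5, which did not, and -1.06 for CP. By list, the difference passed for 17 of 32 interferon-stimulated genes and 10 of 40 mitotic genes, every one of them more positive with control siRNA, against 11.1% of all genes. The difference was negative in all 8 of 13 androgen-repressed genes, 7 of 21 amino acid transporters and 6 of 24 glycolysis genes for which it passed, in 12 of the 13 among 33 secretory genes and in 8 of the 11 among 29 glycosylation genes. The 11.1% of all genes covers both signs. Its split by sign is not given here, so how unusual these directions are cannot be judged. With TRIM24 siRNA, 25 of the 32 interferon-stimulated genes fell and none rose with DHT, and 15 of the 40 mitotic genes rose and 2 fell. Among all genes, 16.9% rose and 26.6% fell with that siRNA.

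**Figure D4:**
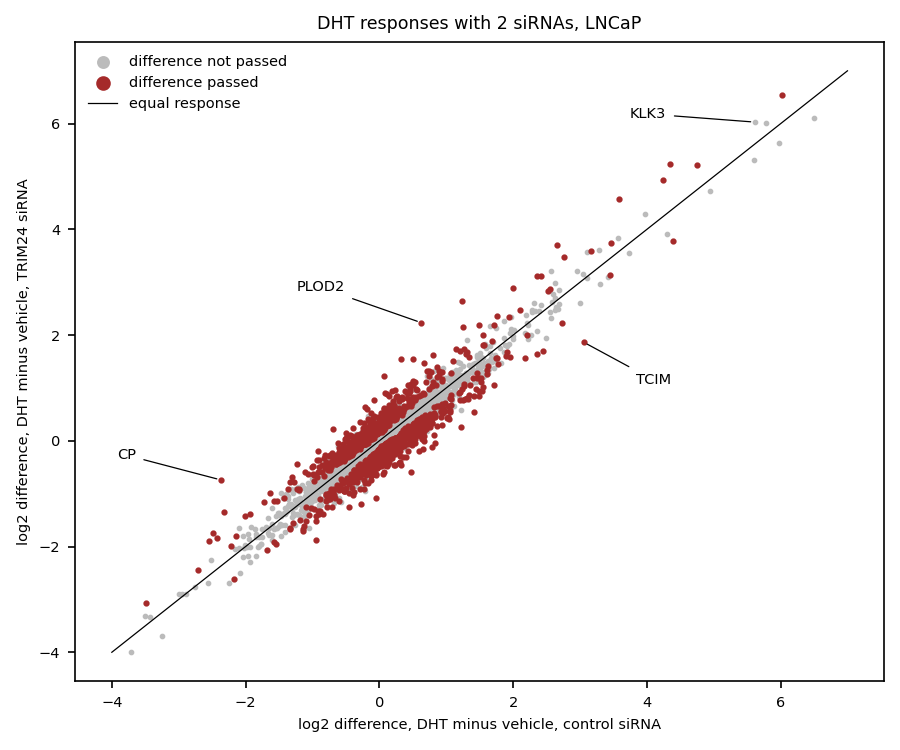
Log2 difference of DHT minus vehicle with control siRNA (horizontal) and TRIM24 siRNA (vertical) for 13607 genes, with the 1507 genes whose responses differed in a darker colour and the diagonal of equal response. The largest changes lie near the diagonal, with KLK3 at 5.62 and 6.03.

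For reference, the levels of the main androgen targets in LNCaP-abl with control siRNA and no hormone are given beside those of LNCaP. KLK3 averaged 5.70 ± 0.33 (SD, n = 3) in LNCaP-abl, below both LNCaP groups, whose means were 8.50 ± 0.10 with vehicle and 14.12 ± 0.04 with DHT. TMPRSS2 averaged 9.97 ± 0.03 in LNCaP-abl, against 9.70 ± 0.02 and 12.25 ± 0.03. FKBP5 averaged 9.70 ± 0.04, against 9.72 ± 0.02 and 13.18 ± 0.02. Among repressed genes, UGT2B15 averaged 13.72 ± 0.02, against 13.17 ± 0.03 and 10.68 ± 0.02, and OPRK1 12.87 ± 0.07, against 11.95 ± 0.05 and 8.46 ± 0.14. These comparisons share the LNCaP vehicle arrays and were not tested here.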

How the data were processed

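Total RNA was measured on 18 one-colour Affymetrix arrays, 3 in each of 6 groups. The deposited values are log2 expression, made by the authors with RMA per the submitters' processing notes, whose version is not given in the sources used here. RMA draws arrays to a common distribution, which hides any shift common to the whole transcriptome. Of 54675 probe sets, 41097 had 1 gene symbol in the platform annotation, 1801 several and 11777 none; 41043 were updated by gene identifier. Each of 19775 genes was represented by its probe set with the highest mean, and 13607 genes with at least 3 arrays at or above 5.88, the table's median, were tested.

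With limma 3.58.1 in R 4.3.3, all 18 arrays entered 1 model with a mean for each group (12 residual degrees of freedom), with Benjamini-Hochberg adjustment over all genes and a threshold of 0.05. Standard errors are the model's. The code was tested on simulated data. The alternatives were other filters, choices of probe set, scalings, variance models, array weights, an RNA quality covariate, a replicate block and leaving out arrays. Motifs were searched on both strands of RefSeq promoters, a full androgen response element with at most 2 of 12 letters different.

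The genes and the 32 lists (768 genes, 647 tested) were chosen with earlier results of these data known. Genes were named by rule: the best-known genes of the pathway, the 12 largest rises and falls without overlap between groups, up to 4 members of each list with the smallest adjusted p, and the 6 largest differences between siRNAs in each direction. Of 194 genes counted in the text, 107 came from this rule and 87 were chosen after their values were seen. A few further members, named after their values were seen because a list moved both ways, are outside these counts. Genes not named on the array were not analysed here.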

Additional observations from a re-analysis of the deposited data

Results flagged for a closer look

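Of the 194 genes counted above, 68 differed in their response to DHT between control and TRIM24 siRNA. The test was limma's, of the difference, with an adjusted p under 0.05 over all 13607 genes. Values are the log2 response with control siRNA minus that with TRIM24 siRNA. Of the 68, 25 were positive and 43 negative. Among all genes 11.1% passed, and their split by sign is not given here. Groups of 3 arrays were not searched for single outlying arrays.

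Among genes that rose with control siRNA, the rise was larger there, or seen only there, for the cell cycle genes CDC25A (0.63), RRM2 (0.50), TOP2A (0.40), UBE2C (0.34), KIF20A (0.24) and CDK1 (0.22), for the sterol genes HMGCS1 (0.86) and IDI1 (0.31) and for TCIM (1.19), CAMK2D (0.95), CXCL8 (0.90), HPGD (0.71), IFIT2 (0.71), ZBTB10 (0.62), EAF2 (0.60), RAB27A (0.49), SMS (0.32), NFKBIA (0.27), UAP1 (0.22) and ELOVL7 (0.22). The responses of CXCL8 and IFIT2 with TRIM24 siRNA were below 0 (-0.12 and -0.31). The rise was smaller with control siRNA for the androgen targets MAF (-1.04), ORM1 (-0.99), SLC45A3 (-0.70), TMPRSS2 (-0.33) and FKBP5 (-0.29), for PLOD2 (-1.61), NPPC (-1.41), TMCC3 (-0.89), SGK1 (-0.89), F5 (-0.69), ERRFI1 (-0.61), HK2 (-0.57), SLC38A4 (-0.52), SNAI2 (-0.46), ODC1 (-0.46), INPP4B (-0.42) and BMPR1B (-0.30) and for IDH1 (-0.25), FASN (-0.25), CREB3L4 (-0.21), GRHL2 (-0.20) and KRT8 (-0.20). Both means of PLOD2 with control siRNA lay below the table's median.

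Among genes that fell with control siRNA, the difference was negative, a fall deeper or seen only with control siRNA, for CP (-1.63), UGT2B17 (-0.97), UGT2B15 (-0.74), CAMK2N1 (-0.66), FOLH1 (-0.54), ACKR3 (-0.52), GPAM (-0.51), ST6GAL1 (-0.49), DUSP6 (-0.48), INSIG2 (-0.44), SLC38A9 (-0.44), OPRK1 (-0.43), ERBB2 (-0.41), BCHE (-0.34), HSPB1 (-0.32), SESN1 (-0.30), LRRN1 (-0.27) and DGAT1 (-0.22). It was positive for DUSP5 (0.54), TP53INP1 (0.48), TCF7L2 (0.28), MCM2 (0.22) and RAB27B (0.20). GPAM, ST6GAL1 and HSPB1 did not fall with TRIM24 siRNA, where their responses were 0.096, 0.003 and 0.086. The genes not called with control siRNA were SQLE (-0.19), SCD (-0.45) and UGT2B28 (-0.76).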

How the results depend on the processing

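The number of genes called for the DHT response with control siRNA ran from 4802 to 6346 over the settings tried, against 6222, and from 5535 to 6004 when 1 array of the comparison was left out. The difference between the responses with control and TRIM24 siRNA was the least stable count: 1507 genes, 993 with no filter on low values, 652 at an adjusted p of 0.01, and 1036 to 1600 with 1 array left out. The cause of the drop without the filter was not tested. The share of promoters with the full androgen response element among genes that rose at least 2-fold went from 1.33% to 0 when 1 differing letter was allowed.

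Of 3658 values of the 194 counted genes, 3590 kept their direction and their side of the threshold. The 17 changes of sign all ended near 0, and all but those of IDI1 also began there. IDI1, called higher above at 0.74, was at -0.023 and not called on its most variable probe set and without _x_at probe sets. CDH1 was at -0.011 over its probe sets and at -0.011 with array weights, CDKN1B at -0.035 after quantile normalization and -0.018 with array weights, and FOXA1 at -0.0041 on its most variable probe set, -0.0098 after quantile normalization and -0.045 with array weights. After median centring DUSP1 was at 0.020, GAPDH at 0.0037 and SCD at 0.021. With 1 array left out, CDH1 ran from -0.021 to 0.069, CDKN1B from -0.033 to 0.040, DUSP1 from -0.021 to 0.0030 and FOXA1 from -0.066 to 0.071. Averaging all probe sets of a gene moved 43 of the 180 called genes by more than 1.5 times.

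Of the 64 counts of list members, 39 stayed within 1.5 times under every setting. After quantile normalization 5 cholesterol synthesis genes and 7 fatty acid oxidation genes were lower, and after median centring 2 secretory genes were lower and 5 steroid genes higher. Arrays with the same replicate number did not deviate together (correlations -0.07, -0.23 and -0.30), so the numbers do not pair the samples; with the replicate number as a block 6144 genes were called for the response and 1364 for the difference. The number of arrays, 3 in each group, limits the precision, and genes near the lower end of the scale have compressed changes: 53 of the genes that rose at least 2-fold had a vehicle mean below 5.88.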
